A study of Daphnia magna with 335 samples.

Results

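The transcripts described here are 133 of 2378 TempO-Seq probes of whole Daphnia magna, chosen by their lower level after 24 h in the highest concentration of each of 2 chemicals. One chemical was 2-tert-butyl-4-methoxyphenol at 66.67 µM and the other fipronil amide at 56.43 µM. A probe was selected on 3 values. Its mean over the 36 DMSO pools had to lie between 10 and 3000 CPM (the count of a probe divided by the total of its library, scaled to a common total). Its log2 ratio of (mean CPM + 2) between the treated pools and their own DMSO pools had to be at most -0.7 with the methoxyphenol and at most -0.5 with fipronil amide. Of the 1353 probes in that CPM range, 261 met the methoxyphenol criterion, 235 met the fipronil amide criterion and 133 met both. The 133 members carry 131 of the 1988 gene identifiers of the panel.

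Each library was a pool of 5 animals from 1 exposure plate, with dead animals left out, and each group had 3 such pools except the highest level of 3,4-dichlorophenyl isocyanate, which had 2. In all, 12 chemicals were tested at 8 concentrations each, from level 8 (lowest) to level 1 (highest), in 6 exposures of 2 chemicals that shared 6 DMSO pools. Every treated animal was also in DMSO, the solvent of the stocks, at the amount the controls received. Nothing used here gives the strain or age of the animals or the deaths per group. The labels distinguish 2 sets of 3 DMSO pools per exposure, named CON and XtraC, and both served as controls.

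Daphnia magna is a small freshwater crustacean that feeds by filtering water and is widely used to test water for toxicity. TempO-Seq ligates a pair of short detector oligos on each targeted transcript and counts the ligated pairs by sequencing, so each probe reads 1 short stretch of 1 transcript. The chemical 2-tert-butyl-4-methoxyphenol is an isomer of butylated hydroxyanisole, an antioxidant used as a food preservative. Fipronil amide is a breakdown product of fipronil, an insecticide that blocks chloride channels gated by the transmitter GABA. The chemical labelled cis-nonachlordane is an organochlorine of the chlordane insecticides. The deposited files do not pair the probe identifiers with gene names, so members are given by identifier and nothing is said of their function.

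Library totals ran from 118094 to 1171681 counts, with a median of 619413. The 3 methoxyphenol pools at 66.67 µM held 485715 to 704859 counts and the 3 fipronil amide pools at 56.43 µM held 509882 to 788891. In 1 isocyanate pool, replicate C of level 2, a single probe held 74.8% of all counts, and the highest such share in the other libraries was 11.1%. The counts of members called with that chemical are therefore given with and without this pool. In pools of whole animals, fewer cells of a type and less RNA per cell cannot be told apart.

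The members were lowered more by the methoxyphenol than by fipronil amide. The values in this paragraph and the next chose the members, so they are a description. The median log2 ratio over members was -1.45 with the methoxyphenol, with a range from -6.36 to -0.71 and quartiles at -2.42 and -1.04. With fipronil amide the median was -0.78, the range -3.95 to -0.50, and the quartiles lay at -1.14 and -0.62. Over all 1353 probes in range the medians were 0.14 and -0.15. The ratio was lower with the methoxyphenol in 122 of the 133 members, and 41 members were at or below -1 in both. All 3 methoxyphenol pools lay below all 6 DMSO pools for 104 members, against 20.3% of the probes in range. For fipronil amide this held for 84 members, against 14.5%, and for both chemicals together it held for 73, against 8.72%. The summed level of the members was 12601 to 13364 CPM in the methoxyphenol pools at 66.67 µM, against 35816 to 43569 CPM in the 6 DMSO pools. It was 15503 to 17945 CPM in the fipronil amide pools at 56.43 µM, against 28843 to 34077 CPM in theirs.

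**Figure D1:**
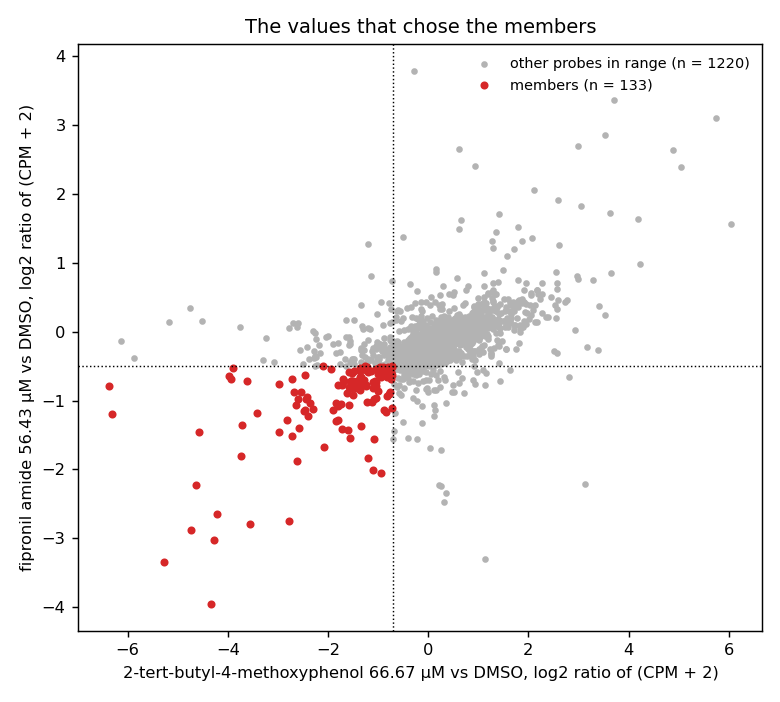
Log2 ratio of (CPM + 2) against DMSO for each probe with a mean of 10 to 3000 CPM, with the methoxyphenol on the x axis and fipronil amide on the y axis. Red points are the 133 members, grey points the other probes in range, and dotted lines the thresholds of -0.7 and -0.5. The members fill the lower left corner and reach -6.36 on the x axis and -3.95 on the y axis.

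The 2 members with the lowest sum of both ratios were nearly absent from the treated pools. Dapma7bEVm005157_96399 was at 0, 1.57 and 0 CPM in the 3 methoxyphenol pools and at 75.1 to 147 CPM, with a median of 83.0, in the 6 DMSO pools. The same probe was at 7.84, 9.52 and 3.80 CPM in the fipronil amide pools and at 47.5 to 114 CPM, with a median of 98.6, in their DMSO pools. Treated and DMSO pools did not overlap for either chemical. Dapma7bEVm011534_97824 was at 0, 0 and 1.42 CPM in the methoxyphenol pools and at 34.5 to 59.3 CPM in DMSO. In the fipronil amide pools it was at 1.96, 1.90 and 1.27 CPM, against 44.1 to 67.7 CPM in DMSO. Its ratios on the (CPM + 2) scale were -4.33 and -3.95, and those of the former probe were -5.27 and -3.34. At the other end, Dapma7bEVm018573_97942 and Dapma7bEVm004354_96583 had the highest sums. The latter was at 14.4, 7.86 and 24.1 CPM in the methoxyphenol pools against 21.6 to 33.9 CPM in DMSO, so that 1 treated pool lay within the DMSO range.

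The probes nearest to the thresholds lay close to each other on both sides. Just inside the methoxyphenol threshold stood Dapma7bEVm020549_95999 and Dapma7bEVm004354_96583 with ratios of -0.713 and -0.722. Just outside it stood Dapma7bEVm000660_95997 with -0.6998 and Dapma7bEVm004291_97494 with -0.6944. For fipronil amide, Dapma7bEVm004354_96583 and Dapma7bEVm001665_97036 were just inside, both at -0.502, and Dapma7bEVm000278_97563 and Dapma7bEVm004355_96760 just outside, both at -0.497.

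Another probe to the same gene identifier did not always meet the rule. Of the members, 40, in 38 gene identifiers, had such a probe, and 2 identifiers held 2 members each. The other 46 probes to these identifiers were not members. Of these, 29 were under 10 CPM, 1 was above 3000 CPM and 16 were in range. The 16 had median ratios of -0.59 with the methoxyphenol and -0.25 with fipronil amide, and 8 of them were below 0 with both. Of the 16, 7 met the methoxyphenol criterion alone and 1 the fipronil amide criterion alone. The identifier with the most strongly expressed such member was Dapma7bEVm015023, where all 3 probes were lowered together by the methoxyphenol. Dapma7bEVm015023_95851 was at 12.4, 15.7 and 11.3 CPM in its pools against 1110.1 to 1365 CPM in DMSO, a ratio of -6.36. Its partners Dapma7bEVm015023_96061 and Dapma7bEVm015023_97408 had ratios of -6.31 and -5.87. With fipronil amide the same 3 probes had ratios of -0.78, -1.19 and -0.38, so that the third was no member. For 2 of the other identifiers named here the probes differed. Dapma7bEVm018449_97092 had ratios of -1.50 and -0.92, and Dapma7bEVm018449_96749, at a mean of 59.6 CPM, had 0.39 and 0.21. For Dapma7bEVm000213_97134 the ratios were -1.35 and -0.72, and for Dapma7bEVm000213_96878 they were 0.06 and -0.36. For the fourth identifier, Dapma7bEVm006949_96413 had ratios of -1.21 and -0.59, and its 2 other probes were at means of 0.142 and 3.25 CPM and gave no usable ratio.

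Below the highest concentration of both chemicals, which chose the members, their median ratios were smaller in size. The level 1 values were bounded by the rule, so the step from level 1 to level 2 is partly fixed by the choice. The median ratio over members was -1.45 at 66.67 µM of the methoxyphenol, -0.13 at 21.1 µM and 0.05 at 6.677 µM, and from -0.07 to 0.15 at the 5 lower levels. With fipronil amide it was -0.78 at 56.43 µM, -0.19 at 17.9 µM, -0.06 at 5.65 µM and -0.19 at 1.79 µM, and from -0.18 to -0.01 at the 4 lower levels. These medians share the DMSO pools that chose the members and carry no test. The range of the corresponding medians over all probes in range was -0.13 to 0.04 for levels 2 to 8 of the methoxyphenol and -0.07 to 0.03 for those of fipronil amide. The summed level of the members varied widely between some pools. It was 40058 to 79235 CPM at 0.067 µM of the methoxyphenol and 37835 to 106027 CPM at 0.067 µM of metribuzin-DA, of the same exposure. At 0.0567 µM of fipronil amide it was 31401 to 32549 CPM.

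**Figure D2:**
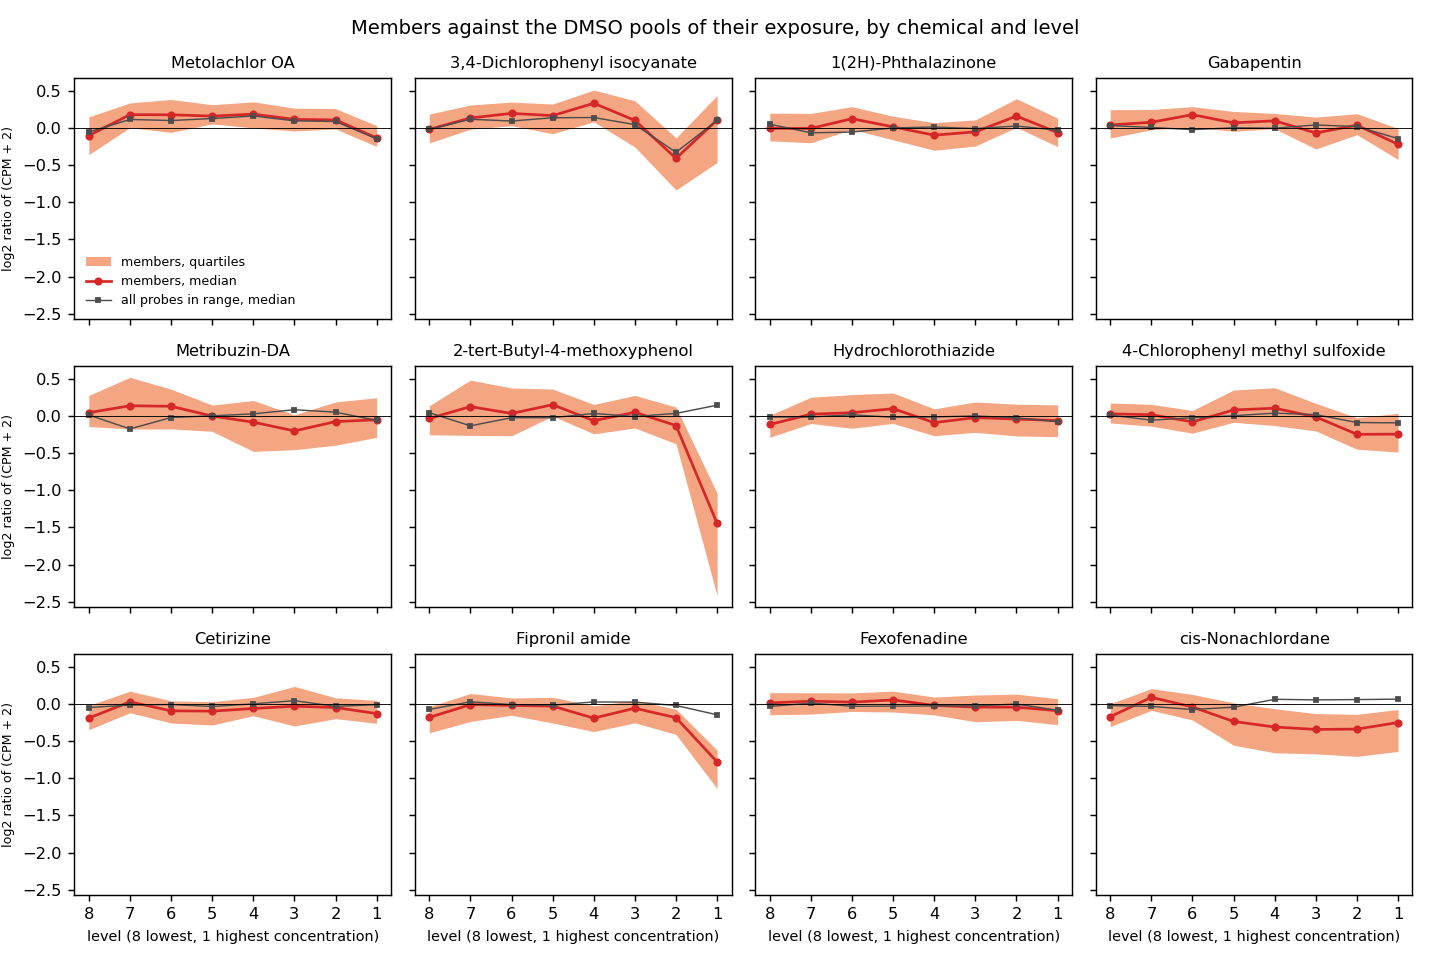
Log2 ratio of (CPM + 2) against each exposure's own DMSO pools (y axis) by level (x axis, lowest concentration at the left) for the 12 chemicals. Red lines are medians over the 133 members, shaded bands their quartiles and grey lines medians over all 1353 probes in range. The members are at -1.45 and -0.78 at level 1 of the methoxyphenol and of fipronil amide, the level that chose them. They lie under the grey line at levels 1 to 5 of cis-nonachlordane.

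At the second highest level a few of the same probes were already lower than at the levels beneath it, in pools that did not enter the choice of members. Level 2 was compared with levels 3 to 8 of the same chemical with the quasi-likelihood test of edgeR, p-values were adjusted over all probes tested by the Benjamini-Hochberg method, and a probe was called at an adjusted p under 0.05. With the methoxyphenol 4 of 133 members were called lower, against 0.277% of all 1443 probes tested, which is the same 4 probes. Dapma7bEVm005157_96399 was at 27.9, 36.5 and 22.0 CPM at 21.1 µM. At 6.677 µM it was at 71.7, 74.6 and 80.7 CPM, and its lowest pool over levels 3 to 8 held 55.9 CPM. The log2 fold change was -1.37 ± 0.20 (SE, n = 3 against 18 pools; adjusted p = 0.000296, edgeR). Dapma7bEVm018418_97341 was at 22.3, 12.2 and 14.7 CPM at 21.1 µM and at 59.7, 59.0 and 47.4 CPM at 6.677 µM. Its log2 fold change was -2.11 ± 0.35 (SE, n = 3 against 18; adjusted p = 0.00114, edgeR). The level 2 pools of both probes lay below every pool of levels 3 to 8. Without replicate A, B or C the count of 4 became 7, 1 and 1. The call of Dapma7bEVm005157_96399 was lost without replicate C and that of Dapma7bEVm018418_97341 without replicate B. With RLE size factors or no filter on low counts the count was 2 each. Shares over all probes are not given for these alternatives.

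With fipronil amide, level 2 against levels 3 to 8 called 1 of 124 members lower, against 0.0722% of 1385 probes, which is that 1 probe. It was again Dapma7bEVm018418_97341, at 80.2, 52.1 and 83.0 CPM at 17.9 µM and at 159, 132 and 112 CPM at 5.65 µM. The level 2 pools lay below all pools of levels 3 to 8, and the log2 fold change was -0.99 ± 0.16 (SE, n = 3 against 18; adjusted p = 0.00589, edgeR). Without replicate A or B no member was called, and without replicate C there were 2, again with no share over all probes given. A linear trend over levels 2 to 8 called 0 of 133 members for the methoxyphenol by edgeR, against 0.693% of all probes. DESeq2 called 1 member, against 1.11% of all probes. By edgeR 19 members had an unadjusted p under 0.05, against 7.76% of all probes. For fipronil amide the trend called 0 of 124 members by edgeR, against 0.217% of all probes. DESeq2 called 1 member, against 0.505% of all probes. By edgeR 11 members had an unadjusted p under 0.05, against 11.3% of all probes.

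Many of the members were also lower with cis-nonachlordane, a chemical of another exposure with its own DMSO pools, and at much lower concentrations. Over all 8 levels against DMSO, 35 of 133 members were called with their largest change downwards, against 6.25% of the 1424 probes tested. Another 4 members were called with their largest change upwards, against 5.90%. Of the 126 probes tested that met the methoxyphenol criterion alone, 10 were called downwards and 14 upwards. The calls downwards at single levels were at the 5 highest concentrations. At 66.67 µM 12 members were lower (1.62% of all probes), at 21.1 µM 27 (4.00%), at 6.677 µM 19 (2.25%), at 2.113 µM 20 (3.51%) and at 0.669 µM 9 (1.40%). At 0.212 µM 0 members were lower and 1 was higher (0.140% called), and at 0.067 and 0.021 µM none was called by edgeR (0% and 0.702%) or by DESeq2, with 10 and 15 members at an unadjusted p under 0.05, against 5.97% and 14.4% of all probes. In all, 33 members were called lower at 1 or more single levels, against 5.90% of all probes, and 7 at each of levels 1 to 5, against 0.562%. The fold change was below 0 at each of these 5 levels for 80 of 133 members, against 21.8% of all probes. The median log2 fold change over members was -0.31, -0.40, -0.38, -0.38 and -0.21 from level 1 to level 5 and 0.02, 0.12 and -0.16 from level 6 to level 8. Over all probes tested it was between -0.01 and 0.02 at every level.

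The count with cis-nonachlordane moved with the pools that entered. Without replicate A, B or C the members called downwards over all levels were 19, 16 and 7, against 2.93%, 2.41% and 0.834% of all probes, and 16, 14 and 7 of these were among the 35. One DMSO pool of this exposure, replicate C of CON, stood apart from the others with a summed level of the members of 53710 CPM, against 40428 to 45307 CPM. Without it 34 members were called downwards, against 5.96%, and 31 of them were among the 35. Against the 24 pools of fexofenadine, the other chemical of the exposure, in place of DMSO, 58 of 132 members were called downwards, against 11.6%, and 34 of them were among the 35. These comparisons without the pool and against fexofenadine were added after the data had been seen.

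**Figure D3:**
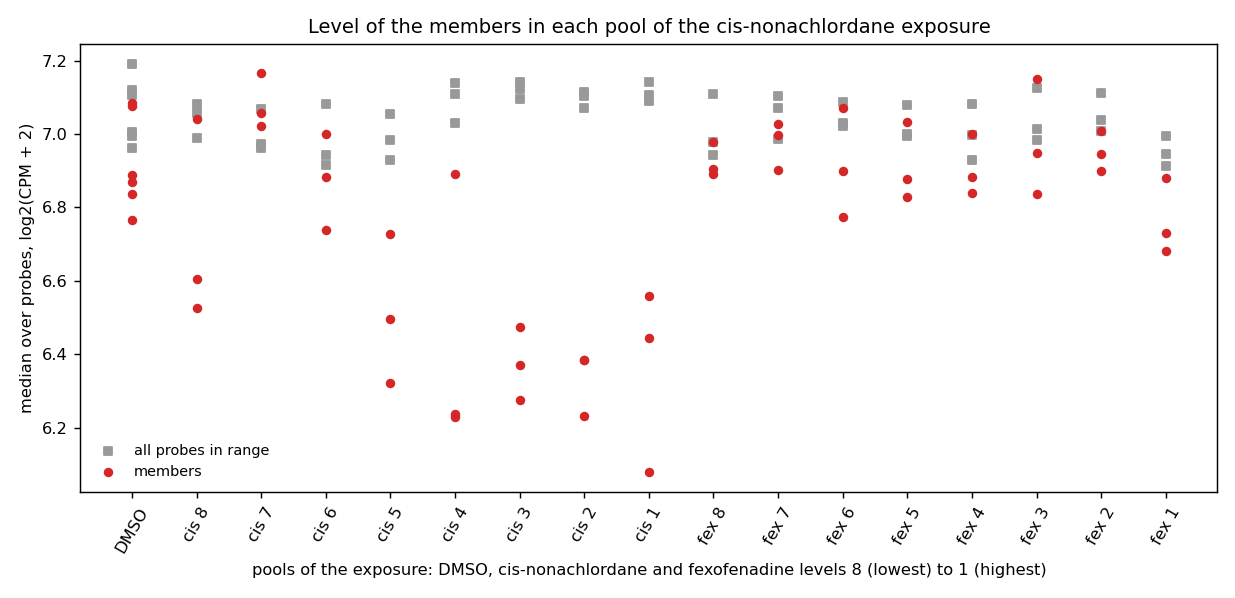
Median of log2(CPM + 2) over the 133 members (red) and over all 1353 probes in range (grey squares) in each pool of 1 exposure (y axis), for DMSO and for cis-nonachlordane (cis) and fexofenadine (fex) from level 8, the lowest, to level 1 (x axis). The 6 DMSO pools lie between 6.77 and 7.08 for the members, and the 3 cis-nonachlordane pools at level 2 between 6.23 and 6.39, while the grey squares of these groups overlap.

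The members with the lowest adjusted p were low at each of the 5 highest concentrations. Dapma7bEVm001964_97694, one of the most abundant members, was at 2166 to 3912 CPM in the 6 DMSO pools, with a median of 3285. At 66.67 µM of cis-nonachlordane it was at 260, 206 and 178 CPM, at 21.1 µM at 185, 188 and 143 CPM, and at 2.113 µM at 314, 145 and 183 CPM. At 0.669 µM it was at 1158, 550 and 539 CPM. All pools of levels 1 to 5 lay below all DMSO pools. The log2 fold change was -4.26 ± 0.37 at 21.1 µM and -2.04 ± 0.32 at 0.669 µM (SE, n = 3 against 6; adjusted p = 3.66e-08 and 0.000475, edgeR). At 0.212 µM the same probe was higher than in DMSO, at 6152, 5604 and 11096 CPM, a difference of 1.34 ± 0.28 log2 units (SE; adjusted p = 0.0459, edgeR). For comparison, it was at 235, 156 and 261 CPM at 66.67 µM of the methoxyphenol and at 347, 240 and 312 CPM at 56.43 µM of fipronil amide.

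Dapma7bEVm014955_97425 went the same way. It was at 6.71, 21.3 and 4.28 CPM at 66.67 µM of cis-nonachlordane and at 141 to 235 CPM, with a median of 181, in DMSO. The log2 fold change was -4.17 ± 0.38 (SE, n = 3 against 6; adjusted p = 5.79e-08, edgeR), and at 0.669 µM it was -2.16 ± 0.31 (adjusted p = 0.000246, edgeR). At 0.212 µM the pools were at 162, 116 and 152 CPM, 2 of them within the DMSO range. The 2 members most lowered by the rule were among those called: Dapma7bEVm011534_97824 had a log2 fold change of -4.53 ± 0.50 at 21.1 µM (adjusted p = 1.39e-06, edgeR) and Dapma7bEVm005157_96399 of -1.51 ± 0.21 (adjusted p = 2.86e-05, edgeR). The former was at 14.6, 3.14 and 4.67 CPM in those pools against 130 to 229 CPM in DMSO, and the latter at 40.8, 50.2 and 56.1 CPM against 116 to 188 CPM.

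The order of the members was shared only in part between the chemicals. Dapma7bEVm015023_95851, the member with the lowest ratio of all with the methoxyphenol, was at 959 to 1062 CPM at 66.67 µM of cis-nonachlordane against 1263 to 1711 CPM in DMSO, which is -0.62 ± 0.10 on the log2 scale (SE, n = 3 against 6; adjusted p = 0.000544, edgeR). Of the 39 members at or below -2 with the methoxyphenol, 23 were called downwards over all levels of cis-nonachlordane, and of the 94 others 12 were. Split at -1 for fipronil amide, it was 17 of 45 members and 18 of 88. Across the 133 members, Spearman's rho between the cis-nonachlordane fold change at 21.1 µM and the ratio of the rule was 0.35 for the methoxyphenol and 0.47 for fipronil amide. Between the 2 ratios of the rule it was 0.51. These are given as descriptions across probes, which are not independent replicates and which the rule cut off at its thresholds.

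**Figure D4:**
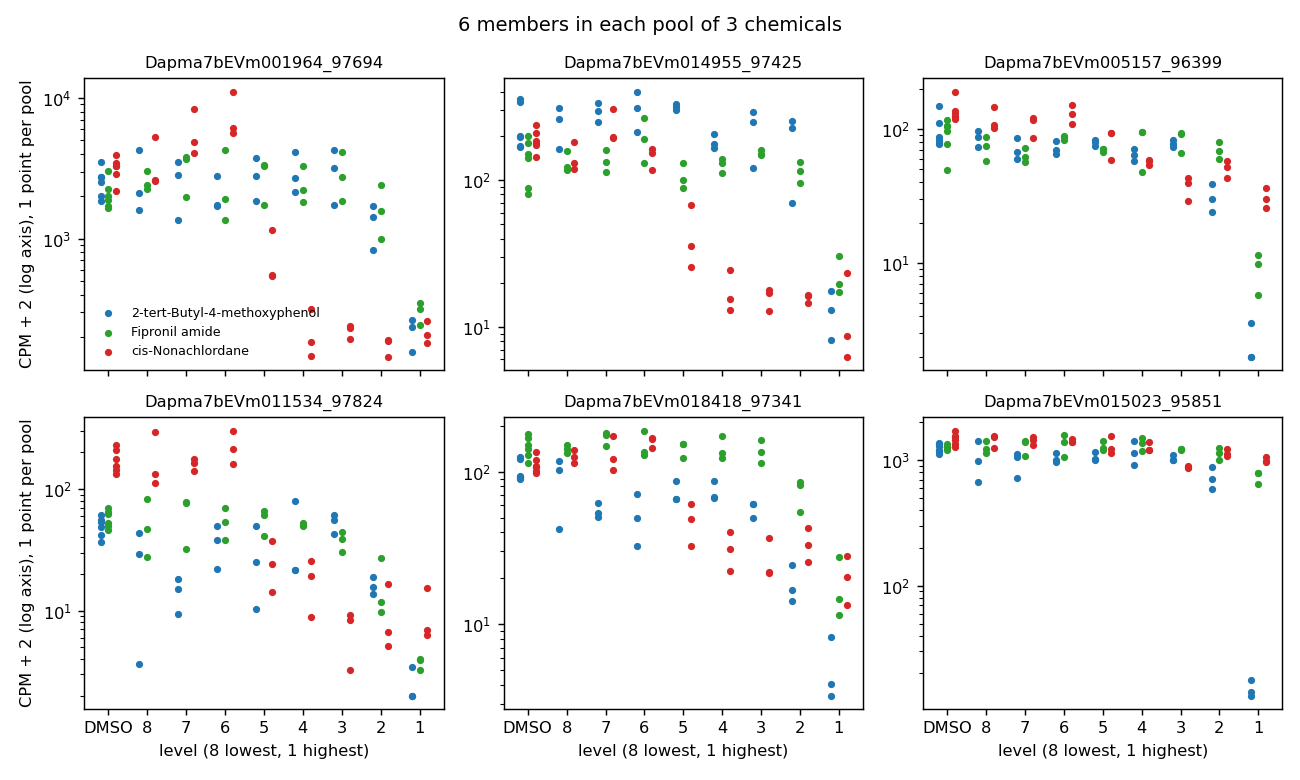
CPM + 2 on a log axis for 6 members in each pool of the methoxyphenol (blue), fipronil amide (green) and cis-nonachlordane (red), by DMSO and by level from 8, the lowest, to 1 (x axis), with 1 point per pool. With the methoxyphenol and fipronil amide the points are lowest at level 1, the level that chose the members. With cis-nonachlordane they are low from level 5 to level 1 in the first 5 panels, such as 143 to 188 CPM for Dapma7bEVm001964_97694 at level 2.

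Beside the rise of Dapma7bEVm001964_97694 at 0.212 µM, 3 members were called higher at single levels of cis-nonachlordane. Dapma7bEVm010045_96925 was at 413, 434 and 394 CPM at 66.67 µM and at 214 to 348 CPM in DMSO, with no overlap. The difference was 0.56 ± 0.14 on the log2 scale (SE, n = 3 against 6; adjusted p = 0.0179, edgeR), and the call was lost without replicate B (adjusted p = 0.276) or C (0.330). Dapma7bEVm012026_96143 was at 36.3, 27.8 and 690 CPM at 0.669 µM and at 30.3 to 46.8 CPM in DMSO, so that its fold change of 2.71 (adjusted p = 0.00457, edgeR) came from 1 pool, and without replicate C it was -0.11. Not among these 3, Dapma7bEVm015082_97414 was called over all levels (adjusted p = 0.000381, edgeR), its largest change upwards, with no level called alone. It was at 327, 393 and 385 CPM at 66.67 µM and 808, 770 and 517 CPM at 0.067 µM. The DMSO pools, at 388 to 642 CPM, overlapped both groups. The direction of its largest change reversed without the DMSO pool that stood apart. Among the 24 treated pools alone, with no DMSO pool in the fit, 29 of 130 members fell with rising concentration, against 4.95% of 1414 probes, and 23 of these 29 were among the 35. Without replicate A, B or C the count was 16, 26 and 15. Shares over all probes are not given for these fits, so a change in the members is not told from one in all probes. The lowest adjusted p was that of Dapma7bEVm014955_97425, with -0.75 ± 0.07 log2 units per level of rising concentration (SE, n = 24; adjusted p = 1.09e-07, edgeR).

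With 3,4-dichlorophenyl isocyanate, a few members were lower at the highest concentrations and most rises came from 1 pool. Over all levels 4 of 129 members were called downwards (0.825% of 1454 probes) and 9 upwards (4.20%). Without the pool in which 1 probe held most counts, 5 were called downwards (1.65%) and 1 upwards (4.41%). At 66.67 µM, with 2 pools, 5 members were lower (0.757%) and 1 higher (1.72%), and without that pool in the fit 5 were lower (1.65%) and 2 higher (2.75%). At 21.1 µM 1 was lower (0.413%) and 10 were higher (3.30%), and without that pool 1 was lower (0.207%) and 0 were higher (1.93%). Without it 12 members were at an unadjusted p under 0.05 in either direction by edgeR, against 10.5% of all probes. At 6.677 µM 4 were lower both with it (0.550%) and without it (1.03%). In the trend over treated pools 8 members fell with rising concentration (1.66%) and 8 rose (3.67%), and without that pool 7 fell (2.49%) and 0 rose (3.80%). Over all levels without replicate A, 11 members were called downwards (0.939%) and 10 upwards (4.43%). Without replicate B 1 was called downwards (0.331%) and 9 upwards (2.32%), and without replicate C 1 downwards (0.211%) and 0 upwards (0.914%).

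Dapma7bEVm002785_97150 was at 28.7 and 28.5 CPM at 66.67 µM of the isocyanate, at 29.0, 26.4 and 0 CPM at 21.1 µM, and at 31.9, 27.6 and 32.8 CPM at 6.677 µM. In DMSO it was at 67.9 to 93.3 CPM, with a median of 77.7, and no treated pool of these levels reached that range. The log2 fold change at 6.677 µM was -1.43 ± 0.18 (SE, n = 3 against 6; adjusted p = 2.11e-05, edgeR). The value of 0 is that of the pool in which 1 probe held most counts. Dapma7bEVm011534_97824, so low with the 3 other chemicals, was at 0 CPM in both pools at 66.67 µM of the isocyanate and at 0, 10.5 and 4.68 CPM at 6.677 µM, against 29.8 to 128 CPM in DMSO. At 6.677 µM the log2 fold change was -4.15 ± 1.04 (SE; adjusted p = 0.0225, edgeR), and the call was lost without replicate B (adjusted p = 0.346) or C (0.371). Dapma7bEVm019421_97027 and Dapma7bEVm015061_96772 led the rises at 21.1 µM, at 26.4, 26.4 and 7655 CPM and at 121, 72.2 and 13726 CPM, against 9.06 to 43.7 CPM and 46.4 to 95.3 CPM in DMSO. In both, the 1 pool that stood apart was the pool named above.

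The other 6 chemicals whose DMSO pools gave no ratio of the rule left nearly all members without a call. Over all levels no member was called with metolachlor OA (0% of all probes), 1(2H)-phthalazinone (0.208%), hydrochlorothiazide (0%) or fexofenadine (0.216%), by edgeR. At an unadjusted p under 0.05 there were 7, 20, 9 and 9 members in that order, against 6.42%, 9.70%, 3.95% and 7.34% of all probes. DESeq2 called 0, 7, 0 and 0 members, against 1.06%, 2.98%, 0.353% and 0.791%. With gabapentin (0.556% of all probes) and 4-chlorophenyl methyl sulfoxide (0.0700%) 1 member each was called, upwards, and it was the same probe. DESeq2 called 2 members with gabapentin, against 2.5% of all probes, and 5 with the sulfoxide, against 2.10%. At an unadjusted p under 0.05 by edgeR there were 16 members (9.65% of all probes) and 25 members (11.1%). Dapma7bEVm009468_97463, named here after its values were seen, was at 7.10, 10.7 and 658 CPM at 0.669 µM of gabapentin and at 3.90, 9.56 and 1265 CPM at 2.113 µM of the sulfoxide, so that 1 pool of 3 made each call. It ran from 0 to 790 CPM over the 36 DMSO pools. This probe was also called upwards at 0.212 µM of the isocyanate, by 5.90 ± 1.10 log2 units (SE; adjusted p = 0.0288, edgeR). With the sulfoxide the trend over 24 treated pools called 2 members as falling with concentration (0.211% of all probes). Without replicate A, B or C it called 0, 0 and 1, with no share over all probes given. The median ratio over members at its 2 highest levels was -0.25 each, with -0.09 each over all probes in range. With metribuzin-DA and cetirizine, which shared the DMSO pools of the rule's ratios and carry no test, the medians over members ran from -0.20 to 0.14 and from -0.19 to 0.03.

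The level of the members also differed between exposures where no chemical was given. The DMSO pools of 4 exposures gave no ratio of the rule, though they entered its mean CPM over all 36 pools. Between these 4 exposures 99 of 125 members differed, against 64.2% of 1363 probes (edgeR, adjusted p under 0.05). Of these 99, 73 were highest in the exposure of fexofenadine and cis-nonachlordane and 71 were lowest in that of metolachlor OA and the isocyanate. Of the 833 probes in range that differed, 306 were highest in the former and 377 lowest in the latter. The range of exposure means was 1 log2 unit or more for 88 of 133 members, or 66.2%, and for 25.9% of the probes in range. The median of log2(CPM + 2) over members was 6.77 to 7.08 in the 6 DMSO pools with fexofenadine and cis-nonachlordane and 5.87 to 6.23 in those with metolachlor OA and the isocyanate, which did not overlap. Over all probes in range the medians were 6.96 to 7.19 and 6.46 to 7.10. In the 12 control QA libraries, in 4 sets, the summed level of the members was 29596 to 32320 CPM. In the 36 DMSO pools it was 18893 to 53710 CPM.

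The same level differences touch the cis-nonachlordane result. The members started from the highest DMSO level of the 6 exposures there. In the pools at 21.1 µM their median of 6.23 to 6.39 lay inside the span of 5.87 to 6.64 of the DMSO pools of 4 other exposures, those with the isocyanate, gabapentin, hydrochlorothiazide and cetirizine. It lay below the DMSO pools of the remaining exposure, that of metribuzin-DA and the methoxyphenol, at 6.46 to 6.92. The fexofenadine pools, exposed beside them, stayed between 6.68 and 7.15. The part that the differences between exposures have in the calls was not tested. Dapma7bEVm010045_96925 and Dapma7bEVm010573_96319 had the lowest adjusted p between exposures. The former was at 45.3 to 91.6 CPM with metolachlor OA and the isocyanate, 56.0 to 94.2 CPM with phthalazinone and gabapentin, 184 to 248 CPM with hydrochlorothiazide and the sulfoxide and 214 to 348 CPM with fexofenadine and cis-nonachlordane (adjusted p = 3.58e-10 over all probes, edgeR). The latter was at 138 to 226, 309 to 400, 344 to 499 and 500 to 631 CPM in the same order (adjusted p = 1.04e-09, edgeR).

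**Figure D5:**
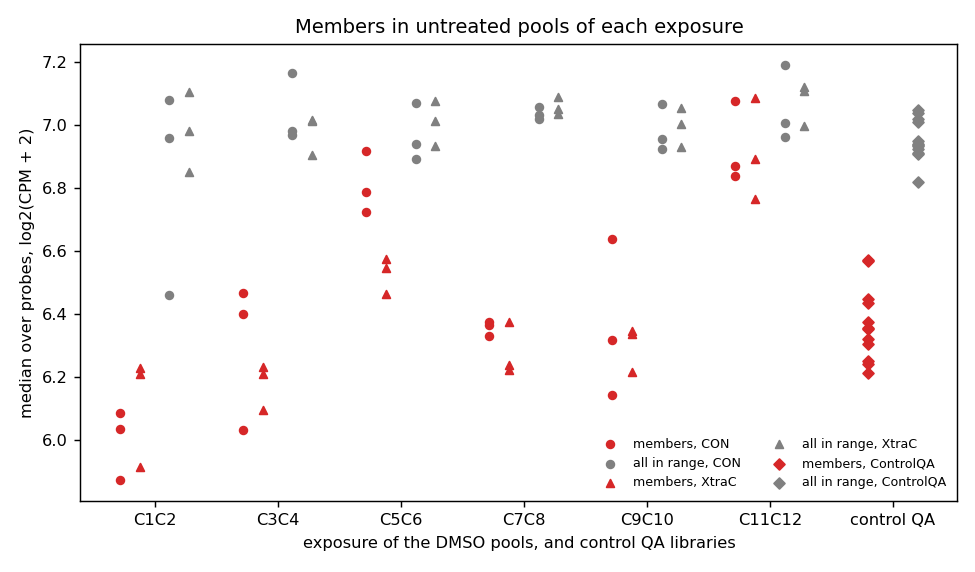
Median of log2(CPM + 2) over the 133 members (red) and over all 1353 probes in range (grey) in each DMSO pool by exposure and in the 12 control QA libraries (x axis). Circles are CON pools, triangles XtraC pools and diamonds control QA libraries. The members span 5.87 to 7.08 over the DMSO pools, and the exposure of fexofenadine and cis-nonachlordane (C11C12) lies highest.

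Over all treated libraries, each centred on the DMSO mean of its exposure, the probe outside the members whose log2 level followed the mean of the members most closely was Dapma7bEVm000175_96305, with a Pearson correlation of 0.77, and 0.82 over the 281 libraries without those of the rule. Next came Dapma7bEVm010807_96790 with 0.77 and 0.75. The former met only the fipronil amide criterion, with ratios of -0.60 and -0.68, and the latter only that of the methoxyphenol, with -1.22 and -0.43. Libraries share exposures, depth and treatments, so these are descriptions of likeness with no test.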

How the data were processed

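For 335 libraries the authors deposited raw counts per probe, which are whole numbers. Tables of log2(count + 1) per chemical, also deposited by the authors, were used only for the concentrations in µM. Some columns of the isocyanate table hold raw counts in place of log2 values. The submitters' processing notes name bcl2fastq, and no source used here names the program that assigned reads to probes. For the isocyanate, whose concentration line disagrees with the labels in 1 library per level from level 2 to 8, levels follow the labels. Per the labels' protocols, animals were pooled within plates of 1 exposure, so p-values measure the spread between such pools, 3 per treated group (2 at level 1 of the isocyanate) and 6 DMSO pools per exposure, some of which must share a plate. No source used here says that the pools came from separate cultures.

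The members and all lists were chosen with earlier results of these data known. CPM are counts scaled to the library total, and 2 was added before log2. Tests ran on the counts over all probes in edgeR 4.0.16 (R 4.3.3; TMM, filterByExpr, quasi-likelihood F test, Benjamini-Hochberg adjustment, threshold 0.05), with DESeq2 1.42.0 as an alternative, and were tested on simulated data. Each chemical was fitted with its 6 DMSO pools. For a test over all levels the direction is that of the level with the largest fold change. Trends used treated pools alone. The comparisons with the DMSO pools of the 2 exposures of the rule were fitted too. Their tests are not reported, as these pools entered the choice of members. The scaling matters: with TMM factors the rule gave 102 probes, 94 of them among the 133. Treated and DMSO pools share the replicate letters A, B and C. In the fits of single chemicals, deviations of same-letter pools correlated above 0 on average, at 0.02 to 0.28. The highest were 0.28 for metolachlor OA and 0.22 for the isocyanate. Between DMSO pools of different exposures the average was -0.02, and some pairs were below 0 in every fit. The labels do not say what the letters name, and what same-letter pools share was not tested. The fit without the letters is the main one, and the fit with them as a block is given as an alternative. None of the probe identifiers was found in the RefSeq gene table, so no sequence or gene name is given.

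Named probes are the 2 members with the lowest and the 2 with the highest summed ratio, the 2 nearest to each side of each threshold, up to 2 per direction with the lowest adjusted p in each test of a single chemical, up to 2 for the DMSO pools, those of the 4 most abundant identifiers with another probe, and the 2 most alike probes outside the members. Tried alternatives were RLE size factors, no filter, DESeq2, the replicate letter as a block, leaving out each replicate, CON pools alone, and other reference levels.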

Additional observations from a re-analysis of the deposited data

Results flagged for a closer look

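Among 26 groups of 6 DMSO pools looked at, 1 held a pool far from the others, where chance alone gives about 1 in 20. In the exposure of fexofenadine and cis-nonachlordane, replicate C of the CON pools had a summed level of the members of 53710 CPM. The nearest other pool was at 45307 CPM and the lowest at 40428 CPM. Its part in the calls is small by count: without it 34 members in place of 35 were called downwards with cis-nonachlordane, and 31 of them were the same probes.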

How the results depend on the processing

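Of 109 alternatives of 12 counts, 72 stayed within 1.5 times of the count reported, and of 198 values of single probes 166 kept direction and call, 24 lost the call and 8 reversed. With both thresholds at -1 the rule chose 41 probes. The counts of called members below are given without shares over all probes, which also moved between settings. Over all cis-nonachlordane levels, 6.25% of all probes were called downwards in the main fit. The share was 11.6% against fexofenadine and 0.834% without replicate C. Over all levels of cis-nonachlordane 39 members were called in either direction, 63 against the fexofenadine pools and 8 to 22 with 1 replicate left out. Over its single levels 36 were called, 20 with CON pools only, 67 against fexofenadine and 11 to 24 with 1 replicate left out. For the isocyanate 13 members over all levels became 6 without the pool dominated by 1 probe and 1 to 21 with 1 replicate left out, and 17 at single levels became 8 without that pool, 9 with CON pools only and 2 to 24. For the other 6 chemicals 2 calls became 14 with DESeq2, 1 with CON pools only and 0 to 1. The 48 trend calls of 10 chemicals became 23 to 38 with 1 replicate left out. The trends over levels 2 to 8 gave 1 call each with DESeq2 in place of 0, and that of fipronil amide 1 over levels 2 to 5. At level 2 of the methoxyphenol 4 calls became 2 with RLE size factors, 2 without a filter and 1 to 7 with 1 replicate left out. At level 2 of fipronil amide 1 call became 2 without a filter, 2 with DESeq2, 3 against cetirizine and 0 to 2. The labels do not say what the replicate letter names. With it as a block, the counts were 51 for cis-nonachlordane, 18 for the isocyanate, 4 for the other 6 chemicals and 101 between DMSO pools. Reversed values (log2) were those of Dapma7bEVm015082_97414 over all cis-nonachlordane levels, -0.54 without the DMSO pool that stands apart, -0.60 against fexofenadine and -0.53 to 0.64 with 1 replicate left out, and of Dapma7bEVm012026_96143 at 0.669 µM, -0.11 to 3.29. With the isocyanate they were those of Dapma7bEVm019421_97027, -1.02 without the dominated pool and -1.51 to 10.42 over all levels and -0.17 to 10.42 at level 2, and of Dapma7bEVm015061_96772, -0.33 to 9.66. Apart from the 2 isocyanate probes, whose value came from 1 pool, and Dapma7bEVm012026_96143, likewise, the cause was not tested. Totals of 118094 to 1171681 counts limit what can be seen for members near 10 CPM.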

Other observations

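The members with the widest spread over the 36 DMSO pools were Dapma7bEVm010997_96071, from 3.73 to 2796 CPM with a median of 947, and Dapma7bEVm009468_97463, from 0 to 790 CPM with a median of 8.09. Their standard deviations were 2.17 and 2.00 log2 units. Both were picked for this spread after it had been seen. The 4 sets of 3 control QA libraries had medians of the members' summed level of 30135, 30746, 30131 and 30768 CPM.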
